A study of Mus musculus with 6 samples.

Results

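Nuclear factor I and Zbtb genes encode transcription factors that act while the cortex is built. Here 6 of them were followed around birth in cells sorted as corticothalamic projection neurons. The genes were Nfia, Nfib, Nfic and Nfix, the whole nuclear factor I (NFI) family, together with Zbtb20 and Zbtb18. They are 6 of the 18193 genes that the arrays measured with probe sets annotated to 1 gene symbol, and all 33 such probe sets of these genes were kept, out of 34945. Zbtb20 had 9 probe sets, Nfib 7, Nfia 6, Nfic 5, Nfix 5 and Zbtb18 1.

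Corticothalamic projection neurons sit mainly in layer 6 of the cortex and send their axons to the thalamus. The samples were 6 arrays of RNA from cells sorted as such neurons from wild type C57BL/6 mice. They comprised 2 arrays at embryonic day 18 (E18), 2 at postnatal day 3 (P3) and 2 at postnatal day 6 (P6). Green fluorescent microspheres had been injected into the thalamus at E17.5, P1 or P4, and the neurons that carried them back to the cortex were sorted at E18.5, P3 or P6. No treated or mutant group was included, so later stages were set against earlier ones. Whether both arrays of one stage stem from separate animals or sorts is not stated, so each p-value measures only the spread between these arrays.

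NFI proteins bind DNA as dimers at a palindrome made of TTGGC, 5 bases of any kind and the reverse complement of TTGGC. In the mouse forebrain Nfia, Nfib and Nfix drive radial glia to stop dividing and to form neurons and then astrocytes, and Nfia and Nfib are also made by deep layer neurons. Zbtb20 and Zbtb18 carry a BTB domain, through which such proteins pair and recruit partners, and zinc fingers that bind DNA. Zbtb20 is a repressor known for setting the identity of hippocampal CA1 neurons and for promoting astrocyte formation from cortical progenitors. Zbtb18, also called RP58, is a repressor that newborn glutamatergic neurons need for their differentiation and migration, and it binds DNA around the core ACATCTG.

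Promoter sequences were taken from RefSeq (build GRCm38.p6) as the 250 bases before a transcription start and the 50 bases from it on. Promoters were available for 5 of the 6 genes, with 1 start each for Zbtb20, Nfia and Nfic, 4 for Nfix and 5 for Zbtb18. None was available for Nfib, which was therefore not searched. The Zbtb20 promoter is shown because Zbtb20 changed most, and 2 of the Zbtb18 promoters because they hold the letters of the Zbtb18 core. All lie on the + strand and are printed 5′ to 3′, with the core, on either strand, in capitals.
Zbtb20, chr16:43247034-43247333: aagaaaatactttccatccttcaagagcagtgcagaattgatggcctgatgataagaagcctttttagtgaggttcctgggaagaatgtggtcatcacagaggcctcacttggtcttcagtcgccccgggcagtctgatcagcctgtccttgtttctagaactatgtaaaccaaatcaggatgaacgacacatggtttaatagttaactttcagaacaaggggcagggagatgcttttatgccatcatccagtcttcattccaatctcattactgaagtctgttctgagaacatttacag
Zbtb18, first start, chr1:177442101-177442400: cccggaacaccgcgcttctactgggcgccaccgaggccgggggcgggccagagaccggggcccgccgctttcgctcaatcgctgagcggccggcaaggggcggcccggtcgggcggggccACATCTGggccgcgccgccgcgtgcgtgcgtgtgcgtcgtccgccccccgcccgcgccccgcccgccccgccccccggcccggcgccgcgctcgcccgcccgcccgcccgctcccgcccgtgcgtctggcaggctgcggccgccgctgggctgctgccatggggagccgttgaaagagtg
Zbtb18, last start, chr1:177445571-177445870: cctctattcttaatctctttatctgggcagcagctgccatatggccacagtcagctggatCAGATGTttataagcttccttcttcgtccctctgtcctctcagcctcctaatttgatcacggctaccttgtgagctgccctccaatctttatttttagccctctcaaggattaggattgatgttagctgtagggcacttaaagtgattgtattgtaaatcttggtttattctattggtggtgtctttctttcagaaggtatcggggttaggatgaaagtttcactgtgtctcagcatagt
The first Zbtb18 promoter held ACATCTG with its first base at position -130 from the start and had a GC content of 81.7%. The last held the reverse complement from position -190 at a GC content of 43%. The core, searched on both strands, lay in 1454 of all 32851 RefSeq promoters of this length, or 4.43%. Neither the core nor the NFI palindrome nor its arm TTGGC was found in the Zbtb20 promoter, which had a GC content of 43.3%, against a median of 52.7% over all promoters. The palindrome was found in 0.0365% of all promoters and in none of those of the 5 genes searched. TTGGC alone was found in 46.7% of all promoters and, among those of the 5 genes, only in some of Nfix. These matches are letters only, and no binding was measured.

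Of these genes, Zbtb20 fell steeply after E18 while the NFI genes and Zbtb18 gave smaller differences, which varied between probe sets of a gene. A probe set was called at an adjusted p below 0.05 in the limma fit over all 34945 probe sets. At P3, 14 of the 33 probe sets were called against E18, 3 higher and 11 lower, where 28.6% of all probe sets were called, 11.5% higher and 17.1% lower. At P6, 11 of 33 were called against E18, 0 higher and 11 lower, where 21.1% of all were called, 8.76% higher and 12.4% lower. Zbtb20 supplied 9 of the falls at each stage. Without it, 5 of 24 probe sets were called at P3, or 20.8%, and 2 of 24 at P6, or 8.33%. After quantile normalization between arrays, 18 of 33 were called at P3, 7 higher and 11 lower. Without Zbtb20 that left 9 of 24, or 37.5%, where 27.3% of all probe sets were called, so whether this share lay below or above that of all probe sets at P3 depended on the scaling. The median change of the 33 probe sets at P3 was -0.23 log2 units, against 0.11 over all probe sets.

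**Figure D1:**
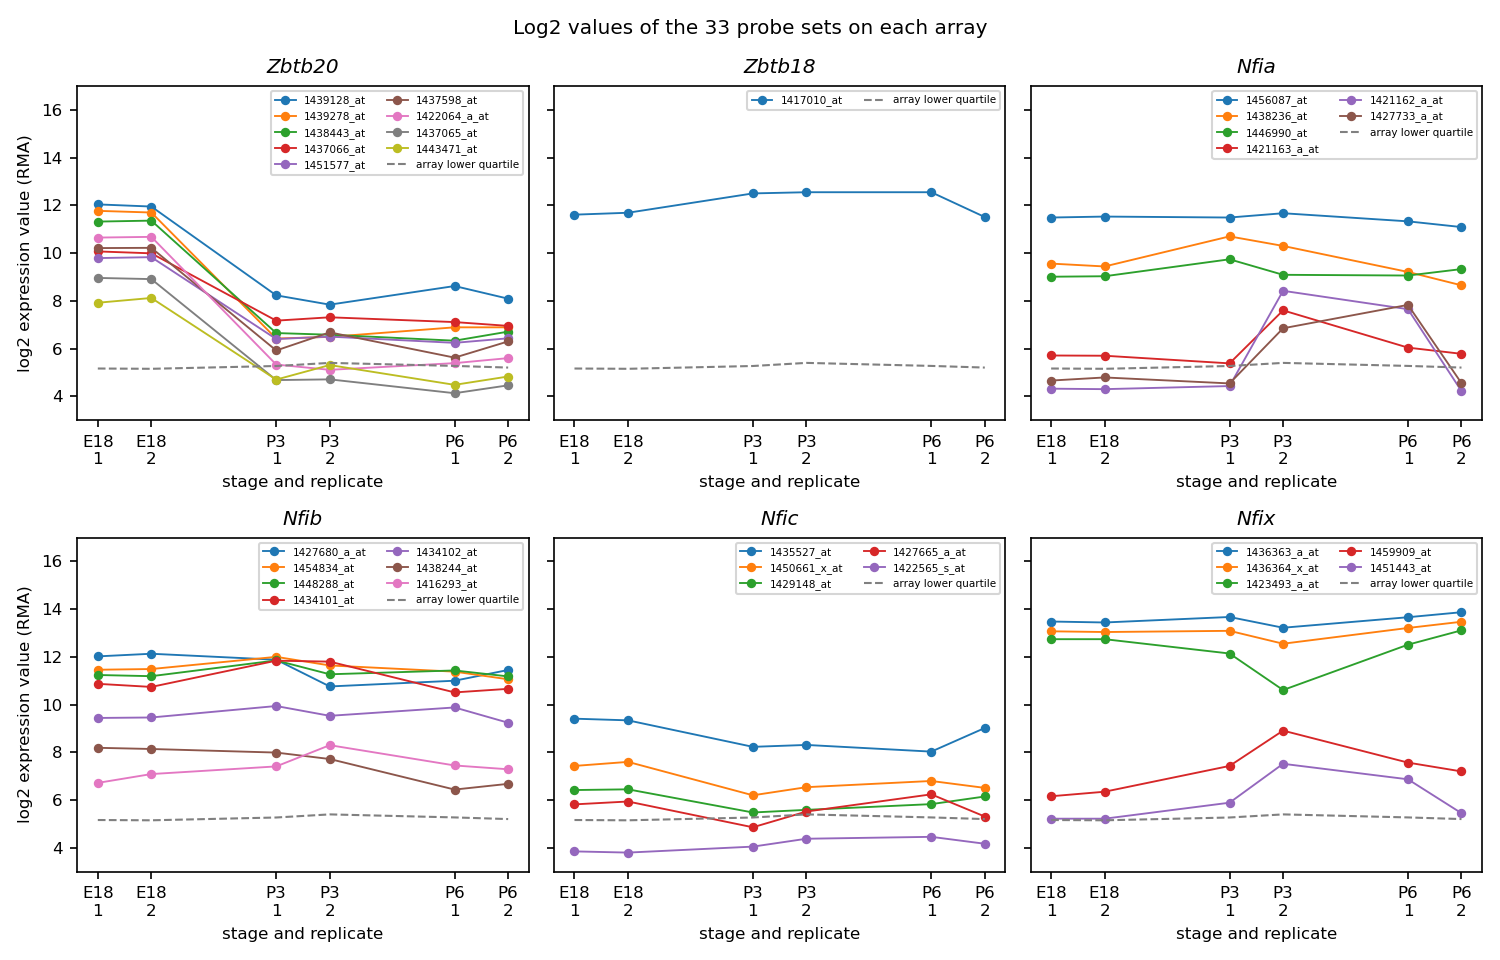
Log2 expression value (vertical axis) of each of the 33 probe sets on each array (horizontal axis, stage and replicate), with 1 panel per gene; lines join the arrays of a probe set and the dashed line is the lower quartile of each array. All 9 Zbtb20 probe sets stand apart between E18 and the later stages, whereas the brightest Nfia and Nfix probe sets run nearly level.

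The fall of Zbtb20 was seen in every one of its probe sets. The brightest, 1439128_at, had log2 values of 12.04 and 11.95 at E18, then 8.23 and 7.84 at P3, then 8.62 and 8.09 at P6. Both E18 arrays lay far above all 4 later ones, and the P3 and P6 arrays overlapped. Its level was 15.6-fold lower at P3 than at E18 (log2 change -3.96, SE 0.28, limma adjusted p = 0.000188). At P6 it was 12.5-fold lower than at E18 (-3.64, SE 0.28, limma adjusted p = 0.000264). The steepest fall was that of 1422064_a_at, a probe set that can match several transcripts of the gene. It read 10.65 and 10.68 at E18, then 5.33 and 5.11 at P3, then 5.39 and 5.60 at P6. Here too the 2 E18 arrays stood above all 4 others, and the change at P3 was -5.45 (SE 0.20), or 43.6-fold.

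Other Zbtb20 probe sets were also highest at E18, while the order of P3 and P6 varied between them. Probe set 1439278_at read 11.77 and 11.70 at E18, then 6.42 and 6.49 at P3, then 6.89 and 6.89 at P6. For 1438443_at the values were 11.32 and 11.36 at E18, then 6.65 and 6.58 at P3, then 6.33 and 6.71 at P6. The smallest fall was that of 1437066_at, with 10.07 and 9.99 at E18, then 7.17 and 7.31 at P3, then 7.11 and 6.95 at P6. In each of these the E18 arrays lay more than 2 log2 units above the rest. The 9 changes against E18 ran from -5.45 to -2.79 at P3 (limma adjusted p from 2.92e-05 to 0.000427) and from -5.18 to -3.00 at P6 (3.49e-05 to 0.000306). All 9 had non-overlapping arrays in each comparison, where 33.7% of all probe sets lay lower without overlap at P3 and 31.2% at P6. Ordered by change at P3, the 9 held places 58 to 782 from the lowest of 34945.

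From P3 to P6 no Zbtb20 probe set was called. The 9 differences, P6 minus P3, ran from -0.40 to 0.43, with 95% confidence intervals that reached from -1.15 to 0.98, so that changes beyond those bounds lay outside every interval. The mean over the 9 probe sets was 10.30 and 10.31 at E18, then 6.17 and 6.28 at P3, then 6.09 and 6.25 at P6. E18 was thus the high stage, and the means at P3 and P6 overlapped. Single probe sets went both ways without overlap of arrays, 1439278_at and 1422064_a_at higher at P6 than at P3, 1437066_at and 1437065_at lower. Later levels were low on the array scale for some probe sets, since 1437065_at and 1443471_at lay below the lower quartile of the array on 4 arrays each and 1422064_a_at on 1. Probe sets 1437065_at and 1437066_at were designed on the same source sequence.

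**Figure D2:**
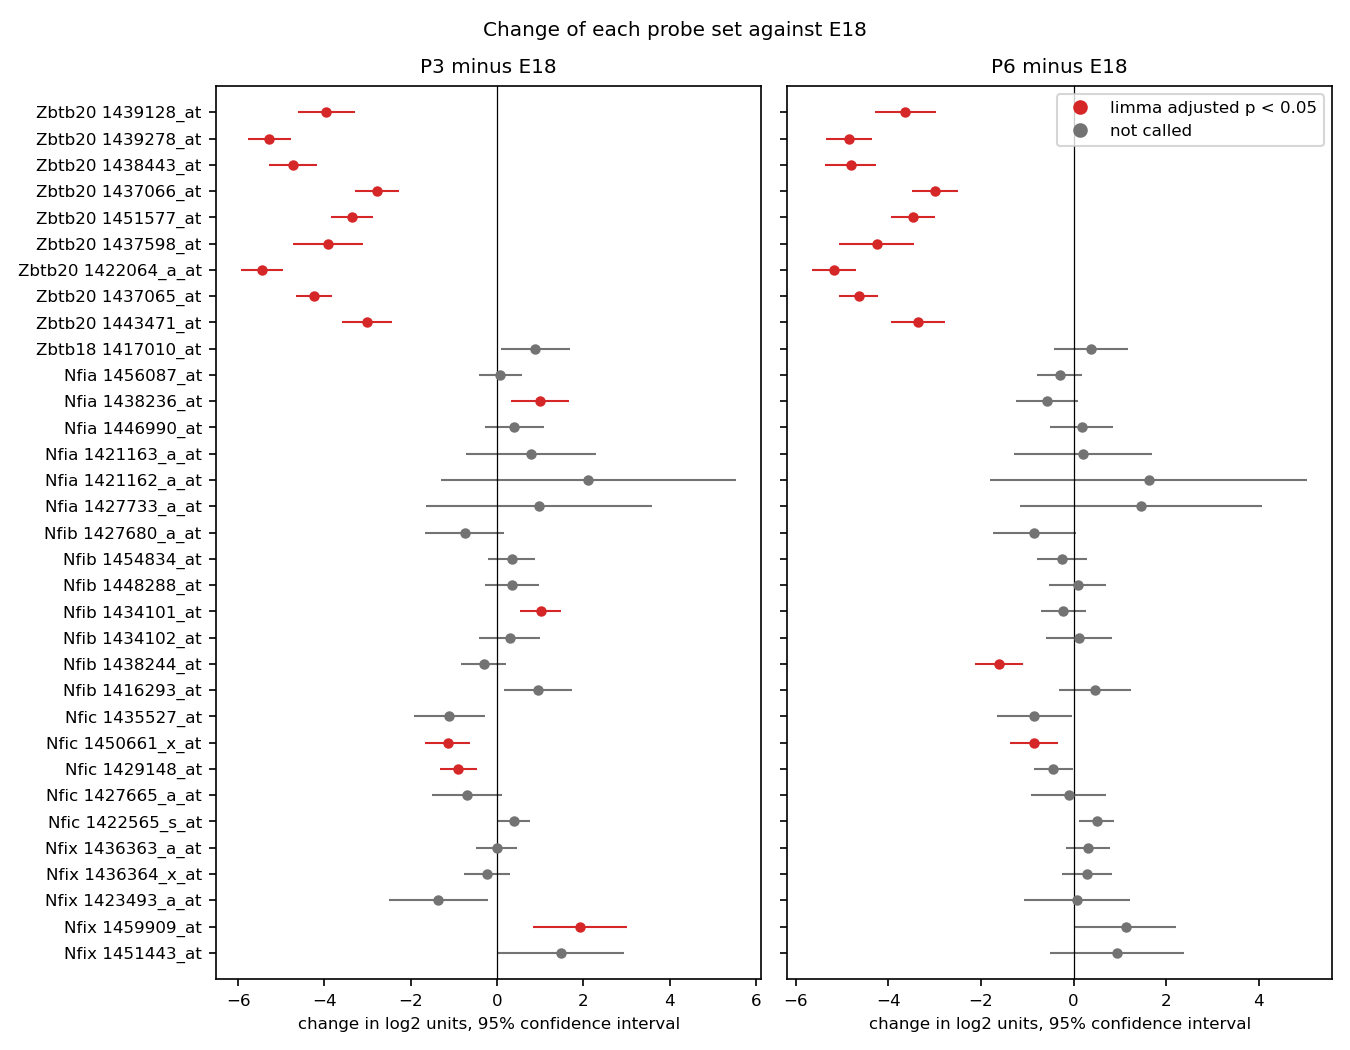
Change against E18 in log2 units (horizontal axis) of each probe set (rows), at P3 on the left and at P6 on the right; points are limma estimates, bars 95% confidence intervals, and red marks an adjusted p below 0.05. The 9 Zbtb20 rows lie between -5.45 and -2.79 at P3 and between -5.18 and -3.00 at P6, apart from all other rows.

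Most markers of dividing progenitors and of astrocytes were also lower after E18 in these sorted samples. The mean log2 level of 15 radial glia and progenitor markers was 10.55 and 10.51 at E18, then 6.33 and 6.65 at P3, then 6.50 and 6.65 at P6. Of these genes 12 fell at P3, led by Sox2 (change -6.75), Neurog2 (-6.41), Sox3 (-6.30) and Vim (-6.13), and 12 fell at P6. The progenitor markers Pax6 (0.66 at P3), Neurog1 (0.46) and Nes (0.07) were called at neither stage. The 11 measured proliferation markers averaged 11.19 and 11.24 at E18, then 6.97 and 6.81 at P3, then 6.94 and 7.02 at P6. Both marker groups thus separated the arrays as Zbtb20 did, with E18 high and the 4 later arrays low. The 13 astrocyte markers averaged 9.72 and 9.77 at E18, then 6.97 and 7.10 at P3, then 7.42 and 8.21 at P6. Of them 8 fell at each later stage, whereas Gfap, Aqp4, S100b, Slc1a2 and Glul were called at neither. Radial glia, astrocytes and neurons can all make Zbtb20, and the part of these cells in its fall was not tested. Fewer cells of a type and less RNA per cell cannot be told apart in bulk samples. Levels of different probe sets cannot be compared with each other, so the means of marker lists do not give shares of cells. The E18 samples had higher mean levels of genes of dividing cells than the later ones. Whether Zbtb20 fell within the neurons was not tested.

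Genes of corticothalamic identity went the other way. The 15 markers of these neurons averaged 8.76 and 8.84 at E18, then 10.30 and 9.65 at P3, then 10.52 and 10.62 at P6, and 0 of the 15 lay below the lower quartile of any array. At P3, 10 rose and 1, Ccn2, a subplate and layer 6b marker, fell, and at P6 the counts were again 10 and 1. Tbr1, a transcription factor of layer 6, read 8.06 and 8.24 at E18, then 9.98 and 9.03 at P3, then 10.23 and 9.88 at P6. Its lowest postnatal array lay above both E18 arrays. Among markers of other cells, 7 of 12 microglia markers fell at P3, led by C1qc (-3.57), and 1, Tmem119, at P6. Their mean level was 8.77 and 8.78 at E18, then 6.42 and 7.11 at P3, then 6.95 and 8.40 at P6, so P6 replicate 2 lay apart from its partner. Zbtb18 and Nfic 1435527_at also differed between the P6 arrays. So did the levels of 18S ribosomal RNA controls (13.92 and 11.33) and of hybridization controls (13.01 and 9.85). The part of microglia or of what these controls measure was not tested. Interneuron markers numbered 12, of which 5 fell at P3, Dlx1 most (-2.88), and Npy, named after its value was seen, rose, and at P6 4 fell and 1 rose. Of 9 oligodendrocyte lineage markers Olig2 and Olig1 fell at P3 and Olig2 alone at P6. Of 10 endothelial and pericyte markers Rgs5, Cldn5 and Pdgfrb fell at both stages. Over all genes at their brightest probe set, 12.1% were called higher and 18.3% lower at P3, and 10.2% and 12.3% at P6.

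**Figure D3:**
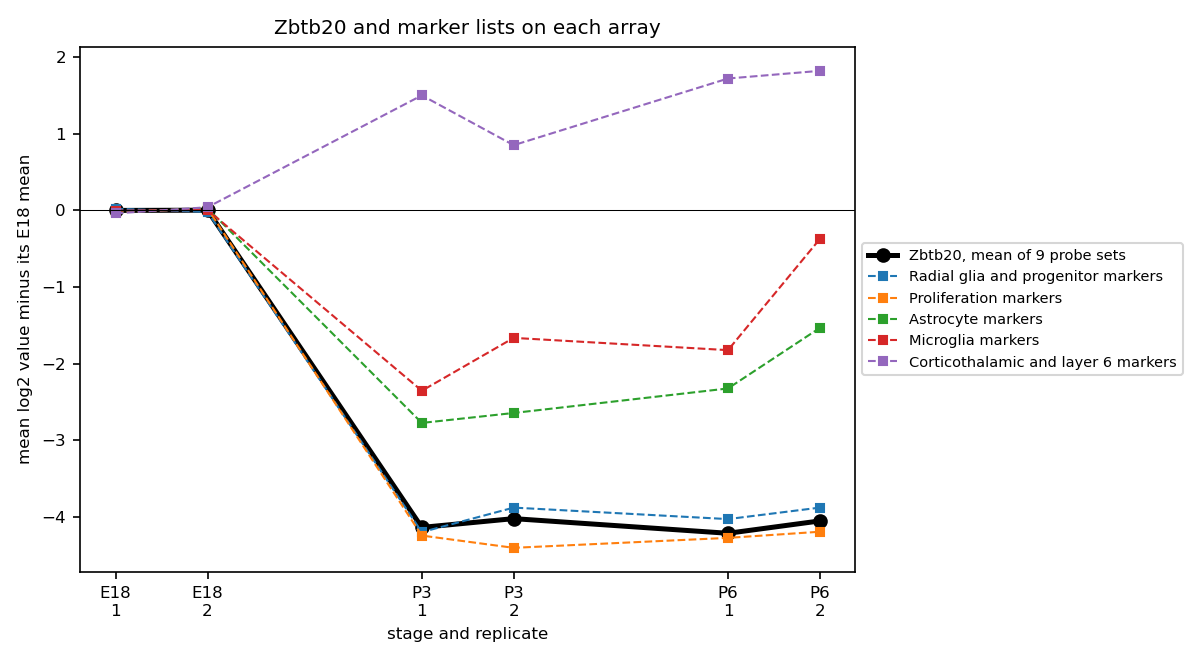
Mean log2 value minus its own E18 mean (vertical axis) on each array (horizontal axis) for the 9 Zbtb20 probe sets in black and for 5 marker lists in colour. Zbtb20 runs beside the progenitor and proliferation markers near -4 at P3 and P6, the astrocyte and microglia markers fall less, and the corticothalamic markers lie above 0.

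Zbtb18 was measured by 1 probe set, 1417010_at, which lay far above the lower quartile of every array. It had log2 values of 11.61 and 11.69 at E18, then 12.50 and 12.55 at P3, then 12.55 and 11.51 at P6. Both P3 arrays lay above both E18 arrays, while 1 P6 array matched P3 and the other lay just below E18. The difference of 0.88 at P3 against E18 (SE 0.34, 95% confidence interval 0.08 to 1.68) was 1.84-fold and did not pass (limma adjusted p = 0.0908). At P6 the difference from E18 was 0.38 (-0.42 to 1.18, limma adjusted p = 0.451), and from P3 it was -0.50 (-1.30 to 0.30, adjusted p = 0.499). The 2 P6 arrays disagreed by more than either difference. Without P6 replicate 2 the difference of P6 from E18 was 0.90 with an adjusted p of 0.0464, and without P6 replicate 1 it was -0.14. The P3 difference passed after quantile normalization between arrays (1.10, adjusted p = 0.047) and when only E18 and P3 were fitted (adjusted p = 0.0264). It was 0.15 with the hybridization control level in the model (adjusted p = 0.716) and 0.49 with the 18S level (adjusted p = 0.287). The hybridization control level was 9.59 and 9.25 at E18, then 11.72 and 11.59 at P3, then 13.01 and 9.85 at P6. It differed between E18 and P3, and within stages mainly between the P6 arrays. That fit is therefore no independent check of a P3 difference, which holds for every use of this covariate below.

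Nfia, which starts gliogenesis in the mouse spinal cord and is also made by young cortical neurons, was nearly level at its brightest probe set. Probe set 1456087_at read 11.49 and 11.53 at E18, then 11.49 and 11.67 at P3, then 11.33 and 11.09 at P6. The P6 arrays were lowest, by small margins. The difference was 0.07 at P3 (95% confidence interval -0.42 to 0.57) and -0.30 at P6 (-0.79 to 0.19) against E18, so neither passed. A second probe set, 1438236_at, moved more. It read 9.56 and 9.44 at E18, then 10.70 and 10.30 at P3, then 9.21 and 8.65 at P6. P3 was the high stage and P6 the low one, with no overlap between any pair of stages. It rose 2-fold at P3 against E18 (1.0, SE 0.28, limma adjusted p = 0.0404). The call was lost without E18 replicate 1 (1.06, adjusted p = 0.21), E18 replicate 2 (0.94, adjusted p = 0.268) or P3 replicate 1 (0.80, adjusted p = 0.0655). The P6 difference from P3 was -1.57, with an unadjusted p of 0.000964 and an adjusted p of 0.185.

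The other 4 Nfia probe sets passed in no comparison with E18 with all 6 arrays and the values as deposited. Without P3 replicate 1 the P3 difference of 1421163_a_at from E18 was 1.90. One of them, 1446990_at, lay between 9.01 and 9.74 on all 6 arrays. The remaining 3 were low except on single arrays of P3 and P6. Probe set 1421162_a_at read 4.32 and 4.30 at E18, then 4.43 and 8.42 at P3, then 7.65 and 4.22 at P6. Its high arrays were P3 replicate 2 and P6 replicate 1. Those same arrays were high for 1427733_a_at, with 4.66 and 4.79 at E18, then 4.54 and 6.85 at P3, then 7.83 and 4.55 at P6. Probe set 1421163_a_at read 5.71 and 5.70 at E18, then 5.38 and 7.60 at P3, then 6.04 and 5.78 at P6, with P3 replicate 2 high. Probe sets 1421162_a_at and 1421163_a_at share their source sequence.

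The arrays P3 replicate 2 and P6 replicate 1 also had the highest signal of 18S ribosomal RNA control probe sets. That signal was 11.32 and 11.37 at E18, then 11.83 and 14.22 at P3, then 13.92 and 11.33 at P6. Of the 33 probe sets, 8 had both of these arrays above the other 4, among them 5 of the 11 of Nfia and Nfix, where 15.7% of all 34945 probe sets did. By more than 1 log2 unit there were 2, Nfia 1421162_a_at (3.23 units) and 1427733_a_at (2.06 units), where 0.318% of all did. With the 18S level as a covariate, the call of Nfia 1438236_at at P3 was lost (0.94, adjusted p = 0.101). The part of ribosomal RNA in these values was not tested further.

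**Figure D4:**
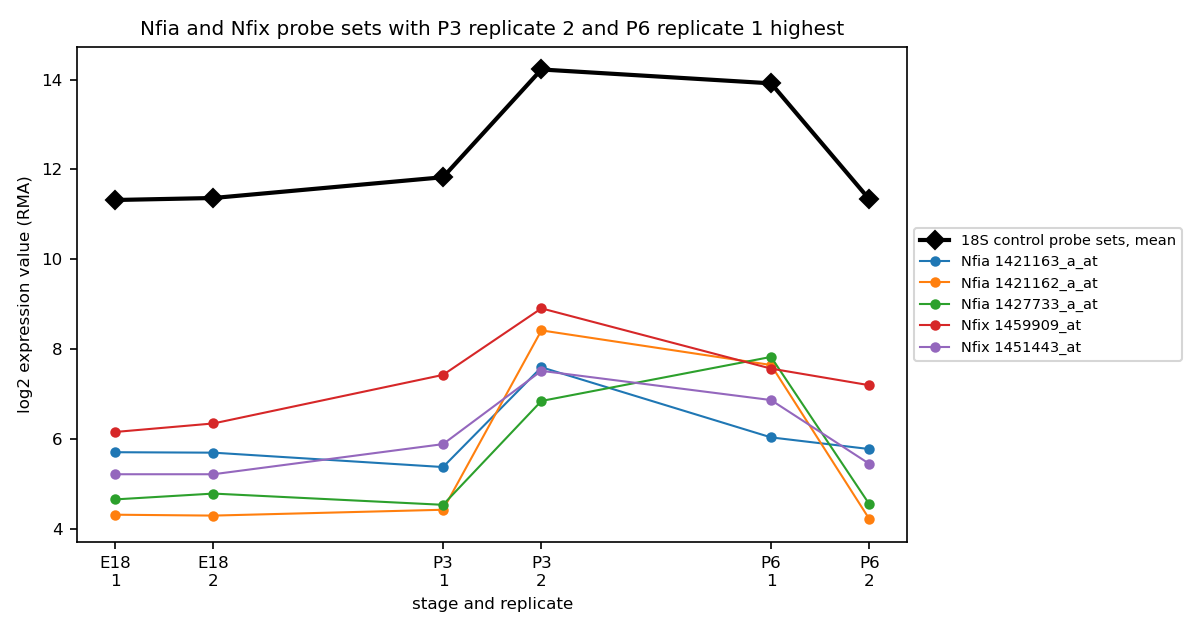
Log2 expression value (vertical axis) on each array (horizontal axis) of the 5 Nfia and Nfix probe sets that were highest on P3 replicate 2 and P6 replicate 1, in colour, and the mean of the 18S control probe sets, in black. The 18S mean is 14.22 and 13.92 on those arrays and between 11.32 and 11.83 on the others.

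Nfib, the NFI member best known for the fibre tracts and deep layers of the cortex, had 7 probe sets, which gave different time courses. The brightest, 1427680_a_at, read 12.02 and 12.13 at E18, then 11.88 and 10.76 at P3, then 11.00 and 11.45 at P6. All 4 later arrays lay below E18, with P3 replicate 2 lowest. Neither difference from E18 passed, with -0.75 at P3 (95% confidence interval -1.66 to 0.15) and -0.85 at P6 (-1.75 to 0.06). The P3 difference was -1.31 without P3 replicate 1 (adjusted p = 0.0105) and -0.19 without P3 replicate 2. The P6 difference passed with array weights (adjusted p = 0.0174) and with E18 and P6 alone (0.0262). Leaving out a P3 array cannot move this difference, which uses only the E18 and P6 arrays. The standard deviation of differences between the 2 arrays was 0.13 at E18, 0.57 at P3 and 0.45 at P6. Without weights the fit takes 1 spread for all stages. Array weights were 6.15 for E18, 0.30 for P3 and 0.53 for P6, so these passes lean on the close E18 arrays. Probe set 1434101_at read 10.87 and 10.74 at E18, then 11.84 and 11.80 at P3, then 10.51 and 10.66 at P6. P3 was its high stage, and its P6 arrays lay just below those of E18. It rose 2.01-fold at P3 against E18 (1.01, SE 0.20, limma adjusted p = 0.0133). Without E18 replicate 1 or replicate 2 it did not pass (adjusted p = 0.137 and 0.194). Its P6 difference from P3 was -1.23 (adjusted p = 0.185).

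A fall at P6 of another Nfib probe set passed whichever array was left out. Probe set 1438244_at read 8.19 and 8.14 at E18, then 7.99 and 7.72 at P3, then 6.44 and 6.68 at P6. The 2 P6 arrays lay more than 1 unit below all others. At P6 it was 3.04-fold lower than at E18 (-1.61, SE 0.22, limma adjusted p = 0.00275), and its P6 difference from P3 was -1.30 (adjusted p = 0.185). The other 4 Nfib probe sets passed in no comparison with all 6 arrays and the values as deposited, but 1416293_at passed at P3 without P3 replicate 1 (1.39, adjusted p = 0.00944). Of these 1454834_at lay between 11.06 and 12, 1448288_at between 11.18 and 11.85, 1434102_at between 9.24 and 9.94, and 1416293_at between 6.72 and 8.30. Probe sets 1434101_at, 1434102_at and 1454834_at share 1 source sequence, and the differences at P3 of the 2 that did not pass were 0.29 for 1434102_at and 0.35 for 1454834_at. Signal at the 3′ end of Actb exceeded that at its 5′ end by 0.56 and 0.58 log2 units on the E18 arrays. This gap reached 1.19 and 1.76 on the P3 arrays, 1.06 and 0.82 on the P6 arrays. For Gapdh the gap ran 1.48 and 1.44, then 2.55 and 1.68, then 2.08 and 1.79 in the same order. Each later array thus had a wider gap than E18. The part of this gap in the differing courses of probe sets of a gene was not tested.

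Nfic is an NFI member made in many tissues and needed in mice for tooth roots. Its mean levels lay below E18 at 4 of its 5 probe sets at both later stages. Of these, 2 passed at P3 and 1 at P6. Its brightest, 1435527_at, read 9.41 and 9.34 at E18, then 8.23 and 8.31 at P3, then 8.03 and 9.02 at P6. Both P3 arrays and both P6 arrays lay below E18. The differences did not pass, with -1.11 at P3 (95% confidence interval -1.92 to -0.29, limma adjusted p = 0.052) and -0.85 at P6 (adjusted p = 0.133). The P3 difference passed in 8 alternatives, such as without P6 replicate 1 or 2 (adjusted p = 0.0188 and 0.0185), and was -0.42 with the hybridization control level in the model (adjusted p = 0.366). At P6 it passed without P6 replicate 2 (-1.34, adjusted p = 0.0229) and was -0.35 without P6 replicate 1. Probe set 1450661_x_at, whose suffix marks probes that may also match other sequences, read 7.43 and 7.60 at E18, then 6.20 and 6.54 at P3, then 6.8 and 6.51 at P6. All later arrays lay below E18. It fell 2.21-fold at P3 (-1.14, SE 0.22, limma adjusted p = 0.0108) and 1.82-fold at P6 (-0.86, adjusted p = 0.033). Leaving out either E18 array lost both calls (adjusted p of 0.0757 and 0.12 at P3, 0.175 and 0.281 at P6), and leaving out P6 replicate 1 or 2 lost the P6 call (0.0619 and 0.105). For 1429148_at the values were 6.42 and 6.45 at E18, then 5.48 and 5.59 at P3, then 5.83 and 6.15 at P6. P3 was the low stage, 1.86-fold below E18 (-0.90, SE 0.18, limma adjusted p = 0.0124). That call was lost without either E18 array (adjusted p = 0.105 and 0.121). Probe set 1427665_a_at lay between 4.86 and 6.24, and 1422565_s_at stayed below the lower quartile on all 6 arrays. Dim as it was, 1422565_s_at lay above E18, by 0.40 at P3 and 0.50 at P6. Neither difference passed (limma adjusted p = 0.0968 and 0.0679). It shares its source sequence with 1450661_x_at, which fell.

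Nfix, which follows Nfia and Nfib in cortical and hippocampal progenitors of the mouse, passed in no comparison at its brightest probe set. Probe set 1436363_a_at read 13.48 and 13.44 at E18, then 13.67 and 13.22 at P3, then 13.66 and 13.87 at P6. The P3 arrays lay on either side of E18, and both P6 arrays lay above it by small margins. The difference was -0.01 at P3 (95% confidence interval -0.49 to 0.47) and 0.31 at P6 (-0.17 to 0.79) against E18. Its near copy 1436364_x_at, from the same source sequence, lay between 12.55 and 13.47. Probe set 1423493_a_at had 12.74 and 12.74 at E18, then 12.14 and 10.61 at P3, then 12.51 and 13.11 at P6. P3 was the low stage, with replicate 2 lowest, and the difference of -1.36 from E18 did not pass (limma adjusted p = 0.0735). Without P3 replicate 1 this difference was -2.13, and that of 1436364_x_at was -0.50.

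Another Nfix probe set rose at P3. Probe set 1459909_at read 6.16 and 6.35 at E18, then 7.43 and 8.91 at P3, then 7.57 and 7.20 at P6. All later arrays lay above E18, and P3 replicate 2, with the highest 18S signal, was highest. It rose 3.77-fold at P3 (1.91, SE 0.46, limma adjusted p = 0.0239). With the 18S level as a covariate the difference was 1.30 and no longer passed (adjusted p = 0.0642). It also missed the threshold without either E18 array (adjusted p = 0.108 and 0.0863) and without P6 replicate 1 or 2 (0.0575 and 0.0576). At P6 the difference from E18 was 1.13 (adjusted p = 0.134). Probe set 1451443_at read 5.22 and 5.22 at E18, then 5.89 and 7.52 at P3, then 6.87 and 5.45 at P6, with the 2 arrays of high 18S signal highest. Its differences did not pass with all 6 arrays and the values as deposited. The P3 difference from E18 was 2.29 without P3 replicate 1.

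**Figure D5:**
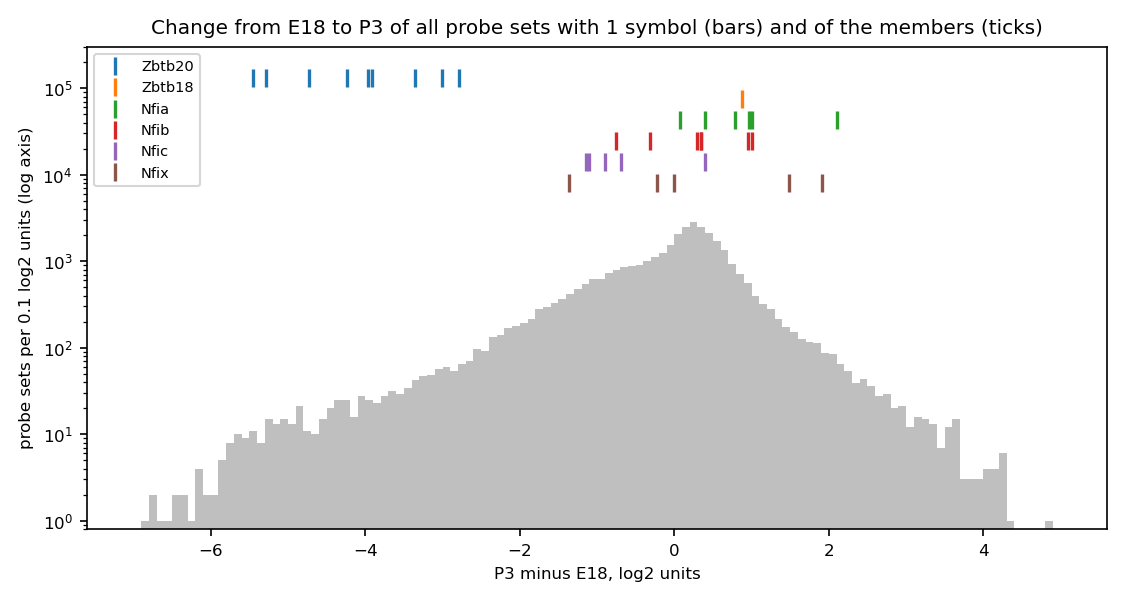
Number of probe sets (vertical axis, logarithmic) by change at P3 against E18 in log2 units (horizontal axis) for all 34945 probe sets, as bars, with each member probe set as a coloured tick above. The 9 Zbtb20 ticks lie in the far left tail, between -5.45 and -2.79, and every other tick lies between -1.36 and 2.11.

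Between P3 and P6, 0 of the 33 probe sets passed in limma, and 0 of all 34945 (0%). At an unadjusted p below 0.05 there were 6 of 33 and 5392 of 34945. Leaving out P3 replicate 1 gave 8 of 33 and 6277 of 34945. Those 8 were 3 higher probe sets, all of Nfix (1423493_a_at, 1436363_a_at and 1436364_x_at), and 5 lower ones, 2 of Nfia, 2 of Nfib and 1 of Nfix. The P3 arrays differed more than 2-fold at 3661 probe sets, the P6 arrays at 1689 and the E18 arrays at 0. A lone P3 array was then taken to vary like the other stages.

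The shape over time was compared by setting the change from P3 to P6 against the change from E18 to P3. In 12 of the 33 probe sets this difference was called, 10 higher and 2 lower, where 12.1% of all were called, 8.87% higher and 3.26% lower. After quantile normalization the split of all calls was 58.37% higher, against 73.14% with the values as deposited, and that of the 33 was 10 higher and 6 lower. The 10 were the 9 of Zbtb20 (2.58 to 5.72) and Nfic 1429148_at (1.36), whose falls came before P3. The 2 lower ones were Nfia 1438236_at (-2.57, limma adjusted p = 0.0222) and Nfib 1434101_at (-2.24, adjusted p = 0.0125), both highest at P3. Without E18 replicate 1 or 2, both of these lost their call, as did Nfic 1429148_at and Zbtb20 1437066_at. Zbtb20 1443471_at (2.49, adjusted p = 0.054) and Nfia 1438236_at (-2.29, adjusted p = 0.0545) lost theirs without P6 replicate 2, and Nfic 1429148_at without either P3 array or P6 replicate 2.

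Genes with links to these factors were described by lists whose members come from other tissues or cell types. The 10 genes tied to NFI proteins in glia formation were mostly lower after E18, with 1 rise and 8 falls at P3 (median change -2.26, against 0.09 over all genes) and 0 rises and 7 falls at P6. Aldh1l1, a folate enzyme of astrocytes, was 39.4-fold lower at P3 (-5.30, limma adjusted p = 4.68e-05) and 22.4-fold lower at P6. Fabp7, a fatty acid carrier of radial glia, fell by 3.66 on the log2 scale at P3, and Hes1, a Notch target, fell by 3.37. Slc1a3, a glial glutamate transporter, fell by 2.96, and Ezh2, a histone methyltransferase of progenitors, fell by 2.89 at P6. Apcdd1, a Wnt inhibitor, was the 1 gene that rose (1.58, limma adjusted p = 0.0291), and it is named after its value was seen. Hes1, Fabp7 and Slc1a3 are also progenitor markers, and Aldh1l1, Gfap, Slc1a3 and Sox9 astrocyte markers, whose levels are given above.

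The 4 genes known as NFI targets in mouse cerebellar granule neurons gave 2 rises and 0 falls at each later stage. Ephb1, a receptor for ephrin-B ligands, read 9.33 and 9.41 at E18, then 11.26 and 11.09 at P3, then 10.57 and 10.63 at P6. Every later array lay above E18, 3.5-fold at P3 (1.81, limma adjusted p = 0.0016). Cdh2, or N-cadherin, rose at P3 (0.93, adjusted p = 0.0322), and Cntn2, an axonal adhesion molecule, at P6 (1.5, adjusted p = 0.00711). The median change at P3 was 0.83, against 0.09 over all genes.

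The 8 genes that Zbtb18 is known to repress in mouse cortex or muscle cells gave 1 rise and 6 falls at both later stages, with a median of -3.31 at P3. Neurog2, the neurogenic factor of cortical progenitors, read 11.87 and 11.83 at E18, then 4.97 and 5.91 at P3, then 5.03 and 4.73 at P6. It was high at E18 alone, with an 85.1-fold lower level at P3 (-6.41, limma adjusted p = 6.24e-05). The differentiation inhibitors Id3 (-4.61), Id1 (-3.95) and Id4 (-3.64) fell at P3, whereas Id2, named after its value was seen, rose (1.20, adjusted p = 0.0232). Neurog2 and Pax6 are also progenitor markers and Id3 an astrocyte marker. Zbtb18 itself passed in neither comparison.

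Of 11 cortical layer genes that Zbtb20 represses in mouse hippocampus, 10 were measured, and 7 rose and 1 fell at P3, with 6 and 1 at P6. The median change was 1.35 at P3, against 0.09 over all genes. Foxp2 read 8.90 and 8.91 at E18, then 11.50 and 11.20 at P3, then 11.29 and 10.65 at P6. This layer 6 factor was higher on every later array and 5.44-fold higher at P3 (2.44, limma adjusted p = 0.00146). Tle4, a corepressor of layer 6 neurons, rose by 2.12 at P3 and 2.49 at P6, and Mef2c, an activity-regulated factor, rose by 2.06 at P3. Cux1, an upper layer factor, was the 1 that fell (-2.05, adjusted p = 0.00179). Foxp2, Tle4, Tbr1, Sox5, Zfpm2 and Fezf2 are on the corticothalamic list as well, so the lists are not independent.

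Calls in the wider ZBTB family were about as frequent as over all genes, or less so. Of 43 other family genes, which include the antisense gene Zbtb11os1, 3 rose and 9 fell at P3, with a median change of -0.13 against 0.09 over all genes, and 2 rose and 6 fell at P6. These are 6.98% and 20.9% of the list at P3 and 4.65% and 14% at P6, beside 12.1% and 18.3%, and 10.2% and 12.3%, of all genes. Zbtb12 read 9.03 and 9.01 at E18, then 7.19 and 6.09 at P3, then 6.38 and 7.48 at P6. Its later arrays all lay below E18, and it was 5.20-fold lower at P3 (-2.38, limma adjusted p = 0.0118) and 4.25-fold lower at P6 (-2.09, adjusted p = 0.0201). Zbtb22 fell at P3 (-2.26) and Zbtb39 at P3 (-1.57) and P6 (-1.52). Zbtb26 fell at P6 (-1.41, adjusted p = 0.0454). Rises at P3 were those of Zbtb8a (1.33), Zbtb16 (1.24), the zinc finger gene also known as Plzf, and Zbtb11 (1.15), and at P6 those of Zbtb8b (1.27) and Zbtb7c (0.95). Zbtb16, Zbtb11 and Zbtb7c are named after their values were seen. 

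Genes with the most similar time course were found by the root mean square difference of centred log2 values over the 6 arrays, among 13645 genes. Nearest to Zbtb20 were Pold1, the catalytic subunit of DNA polymerase delta (0.084 log2 units), the cyclin-dependent kinase Cdk6 (0.138) and Vit, a matrix protein (0.164). Pold1 read 10.91 and 10.89 at E18, then 7.15 and 6.87 at P3, then 7.5 and 7.20 at P6. As with Zbtb20, its E18 arrays stood far above the other 4. Nearest to Zbtb18 were Postn (0.127), Akap12 (0.134) and Sec23a (0.149), which shared a high P3 and a low P6 replicate 2. For the NFI genes the nearest were Col12a1, Mkks and Zcchc14 for Nfia, Mrpl27, Alkbh8 and Senp8 for Nfib, Olfml3, Srsf5 and Gclm for Nfic, and Dnajc4, Clta and Slc36a4 for Nfix. All these values are descriptions over 6 arrays of 1 series, and nearly level genes have many close neighbours.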

How the data were processed

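RNA of sorted neurons was measured on 6 Affymetrix mouse arrays. The authors deposited 1 log2 value per probe set and array, summarised by RMA per the submitters' processing notes. Its version, and whether all arrays were normalized together, is not given in the sources used here. RNA was amplified and biotinylated with an Enzo kit, per the labels' protocols. The values were used as deposited. Of 45101 probe sets, 34945 had 1 symbol in the platform annotation, 932 several, 9160 none and 64 were controls, and only the first were tested. Their Entrez identifiers were in the RefSeq table for 34741, and 0 symbols needed updating.

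The linear model of stage used limma (version 3.58.1, under R 4.3.3) over all 34945 probe sets and 6 arrays, with an intensity trend, no filter on dim probe sets and 3 residual degrees of freedom. P-values were adjusted by Benjamini and Hochberg within each comparison, 2-sided, and called below 0.05. Intervals are 95%. A low value understates a fold, and the number of arrays limits the precision. List genes were taken at the probe set with the highest mean.

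The members and the lists were chosen with earlier results of these data known. Named genes were all probe sets of the 6 genes, the 3 genes nearest to each in time course, and up to 4 called genes of each list with the largest change per comparison. Alternatives were quantile normalization, filters at 25% and 50%, 1 value per gene, no trend, array weights, fewer arrays, a replicate block, and covariates for 18S and hybridization control levels. Injection came closer to collection at E18 than later, so labelling time and stage cannot be told apart there.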

Additional observations from a re-analysis of the deposited data

Results flagged for a closer look

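Flagged here are the 12 probe sets whose change from P3 to P6 differed from their change from E18 to P3 in the limma fit (adjusted p below 0.05). The 9 of Zbtb20 had differences of 5.72 (1422064_a_at), 5.71 (1439278_at), 4.64 (1438443_at), 4.28 (1439128_at), 3.84 (1437065_at), 3.57 (1437598_at), 3.25 (1451577_at), 2.66 (1443471_at) and 2.58 (1437066_at) log2 units, the second interval minus the first. Zbtb20 fell before P3 and showed no call after it. Nfic 1429148_at had a difference of 1.36, with its lowest values at P3. Nfia 1438236_at (-2.57) and Nfib 1434101_at (-2.24) were highest at P3. Both differences share the P3 arrays, so an error in P3 enters them with opposite signs.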

How the results depend on the processing

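The fall of Zbtb20 held in all 152 alternative results at P3 against E18 (changes from -5.55 to -2.49, highest adjusted p 0.0164) and in all 152 at P6 against E18 (-5.28 to -2.79, 0.00985), the leaving out of each array included. The P6 fall of Nfib 1438244_at held in all 17 (-1.73 to -1.44, highest adjusted p 0.0425). The called NFI changes at P3 were less stable: those of Nfia 1438236_at, Nfib 1434101_at, Nfic 1450661_x_at and 1429148_at and Nfix 1459909_at lost their call when E18 was averaged into 1 array, without either E18 replicate, or with the level of the hybridization controls as covariate, and kept their direction. The P6 fall of Nfic 1450661_x_at also lost it under the replicate block (adjusted p 0.0608) and without either P6 replicate. Nfix 1459909_at also lost it when only E18 and P3 were fitted (0.0576). For the unequal change, Zbtb20 lost 6 of 143 calls. Of the called differences of single probe sets none reversed in these alternatives. The hybridization control level itself differed between E18 and P3, so its covariate overlaps with the stage difference.

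Called probe sets of the 6 genes numbered 14 at P3 and 11 at P6 against E18, and 12 for the unequal change. With 1 brightest probe set per gene, 2, 1 and 1 of 6 genes were called, and with the mean per gene 2, 1 and 2. At P3, 9 probe sets were called with E18 averaged and 9 with the hybridization covariate, which left 7 for the unequal change. Leaving out 1 array at a time gave 9 to 20 at P3 against E18, 0 to 8 for P6 against P3, 10 to 14 for P6 against E18 and 8 to 17 for the unequal change. Over all probe sets, the calls numbered 9981, 0, 7389 and 4236 in these 4 comparisons. They were 5629 and 4320 at P3 and P6 against E18 with 1 brightest probe set per gene, and 4833 at P6 with the mean per gene, with fewer features tested. Array weights gave 11842 at P6 and 2755 for the unequal change. E18 averaged gave 3097, 3098 and 1118, and the hybridization covariate 3406, 3800 and 1434. Leaving out 1 array gave 3052 to 16480, 0 to 6277, 3064 to 10983 and 1092 to 12723. The causes were not tested.

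An alternative chosen after seeing the data left out P3 replicate 2 and P6 replicate 1, the arrays of highest 18S level, so that the spread rests on the 2 E18 arrays. It called 28, 20, 25 and 27 probe sets of the 6 genes and 23624, 12130, 20386 and 18900 of all.

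Same-numbered arrays did not deviate together (r = -0.17 for E18 and P3, 0.05 for E18 and P6, -0.24 for P3 and P6), so the numbers were not taken to pair samples. With the replicate block 14, 0, 10 and 11 probe sets of the 6 genes and 8092, 0, 6481 and 3126 of all were called.

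Uncalled differences of the 33 probe sets turned sign in 85 alternative results. The 22 at the brightest probe set of a gene follow, the cause not tested. Nfix 1436363_a_at at P3 was 0.12 with the hybridization covariate, 0.21 with the 18S covariate, 0.21 without the 2 arrays, and -0.23 to 0.21 leaving out 1 array. Nfia 1456087_at at P3 was -0.080, -0.065, -0.014 and -0.01 to 0.16 in the same order. For P6 against P3, leaving out 1 array gave -1.02 to 0.023 for Zbtb18, -0.65 to 0.47 for Nfib 1427680_a_at and -0.23 to 0.76 for Nfic 1435527_at, which was -0.0053 after quantile normalization, and Zbtb20 1439128_at was -0.14 without the 2 arrays. Zbtb18 at P6 against E18 was -0.27 with the hybridization covariate, -0.14 without the 2 arrays and -0.14 to 0.90 leaving out 1. The unequal change of Nfib 1427680_a_at was -0.23 without the 2 arrays and -0.46 to 1.78 leaving out 1, and that of Nfix 1436363_a_at -0.0084 and -0.11 to 0.78.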
